A study of Mus musculus with 12 samples.

Results

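The Hox genes of mouse inguinal white adipose tissue (iWAT) are described here across WT and HIF2α AKO mice at thermoneutrality and upon cold exposure. The members are the genes of the deposited count table whose symbol is Hox, a cluster letter from a to d and a paralogue number, which gives 39 of 23420 genes. iWAT, the subcutaneous fat pad of the groin in which beige adipocytes form, was taken from male C57BL/6 mice at 10 weeks of age, with 3 mice and 3 RNA-seq libraries in each of 4 groups. WT mice carried HIF2a loxP/loxP alleles and no Cre, and HIF2α AKO mice carried the same alleles with Adipoq-Cre. TN mice of either genotype spent 1 week at 30 °C, and cold mice spent 3 days at 4 to 6 °C, so that temperature and length of exposure changed together. The promoter that drives Cre acts in adipocytes, whereas the RNA came from the whole pad with its stromal, immune and vascular cells. No group had Cre without the floxed alleles, so Cre and the loss of HIF2α cannot be told apart.

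Hox genes encode homeodomain transcription factors that give cells their position along the body axis. They lie in 4 clusters, and genes with the same number in different clusters are paralogues, with low numbers used towards the head and high numbers towards the tail. Adipose depots keep such a positional code in the adult. The proteins bind DNA with TALE cofactors of the Pbx and Meis families, Polycomb complexes keep silent Hox genes off, and Trithorax complexes keep active ones on.

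The homeobox, the stretch of coding sequence for the DNA-binding homeodomain, is shown first for Hoxa4 and Hoxc4 of paralogue group 4, because Hoxa4 differed most between temperatures while none of its paralogues passed the test for a rise. The sequences were read from GENCODE transcripts on GRCm38, each 180 bases long, at chr6:52190483-52190662 on the minus strand for Hoxa4 and chr15:103035663-103035842 on the plus strand for Hoxc4. Capitals mark the bases at which these genes differ.
Hoxa4: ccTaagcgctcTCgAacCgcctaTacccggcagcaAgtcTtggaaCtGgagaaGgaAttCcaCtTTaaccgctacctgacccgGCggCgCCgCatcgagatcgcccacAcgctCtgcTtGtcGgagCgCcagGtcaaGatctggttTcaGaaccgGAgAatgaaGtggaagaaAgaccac
Hoxc4: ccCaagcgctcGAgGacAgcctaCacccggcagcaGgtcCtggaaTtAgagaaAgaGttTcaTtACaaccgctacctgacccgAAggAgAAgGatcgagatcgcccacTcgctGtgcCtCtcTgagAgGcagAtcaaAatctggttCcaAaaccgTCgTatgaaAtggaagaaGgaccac
Hoxa4 had the same base as Hoxc4 at 142 of 180 places. Over the whole coding sequences, the longest stretch they shared was 17 bases.

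Group 10 is shown because Hoxa10 and Hoxc10 rose upon cold exposure and Hoxd10 did not pass the test. Its homeoboxes lie at chr6:52232554-52232733 on the minus strand for Hoxa10, and on the plus strand at chr15:102970848-102971027 for Hoxc10 and chr2:74694141-74694320 for Hoxd10. Capitals mark bases that differ from Hoxa10, and in Hoxa10 bases that neither paralogue has.
Hoxa10: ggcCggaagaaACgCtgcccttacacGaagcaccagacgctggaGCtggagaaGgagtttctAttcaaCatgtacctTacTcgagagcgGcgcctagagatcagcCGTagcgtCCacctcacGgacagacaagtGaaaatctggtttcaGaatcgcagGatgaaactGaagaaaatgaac
Hoxc10: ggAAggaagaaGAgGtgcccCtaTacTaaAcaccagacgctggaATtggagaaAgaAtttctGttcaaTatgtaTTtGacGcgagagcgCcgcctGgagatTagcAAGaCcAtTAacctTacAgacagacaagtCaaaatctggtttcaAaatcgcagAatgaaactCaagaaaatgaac
Hoxd10: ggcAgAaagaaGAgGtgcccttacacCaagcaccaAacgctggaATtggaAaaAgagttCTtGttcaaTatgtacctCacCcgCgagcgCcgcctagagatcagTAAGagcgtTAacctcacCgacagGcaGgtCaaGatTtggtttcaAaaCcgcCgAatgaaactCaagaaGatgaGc
Hoxa10 had the same base as Hoxc10 at 145 of 180 places and as Hoxd10 at 142, with shared coding stretches of at most 17 and 14 bases.

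The libraries held between 22368316 and 35204631 counts on genes, of which 4515 to 8919 fell on Hox genes. Epas1, which encodes HIF2α, stood at 360 ± 76.8 CPM in TN WT and 348 ± 53.8 CPM in TN HIF2α AKO mice (mean ± SD, n = 3). In cold it stood at 627 ± 101 CPM in WT and 826 ± 139 CPM in HIF2α AKO mice. Every cold HIF2α AKO library lay above every cold WT library, the nearest at 743.2 and 742.8 CPM, and the TN genotypes overlapped. The level of this mRNA thus did not separate the genotypes in the direction of the labels, which are used as given. By RT-qPCR, the paper reports lower mRNA of this gene in iWAT of its HIF2α AKO mice. CPM are counts on the usual scale per library total, with TMM factors applied to the totals. Of the marker lists, skeletal muscle genes summed to 1983 CPM in TN HIF2α AKO replicate 2 and 1723 CPM in cold HIF2α AKO replicate 1, and epithelium genes summed to 264 CPM in TN WT replicate 3. These 3 libraries stood apart, and the counts of called genes below are also given without them. All 8 white adipocyte markers were present, and their sum marked the tissue as fat in every library, from 5029 to 34103 CPM.

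Of the 39 Hox genes, 28 were detected, with at least 10 counts in at least 3 libraries, and the same 28 passed the filter for testing. The detected genes comprised 9 of 11 in the Hoxa cluster, 8 of 10 in Hoxb, 6 of 9 in Hoxc and 5 of 9 in Hoxd. By position, 6 of 8 genes of paralogue groups 1 to 3, all 15 of groups 4 to 8 and 7 of 16 of groups 9 to 13 were detected. No gene above number 10 was among them. Hoxc11 had 33 counts over the 12 libraries, Hoxb13 had 5, Hoxa11 had 2, and Hoxa13 and Hoxd11 had 1 each. Hoxb1, Hoxc12, Hoxc13, Hoxd1, Hoxd12 and Hoxd13 had 0 counts in all libraries, which allows a level of up to 0.00924 CPM over the 12 libraries together, taking 3 counts as the limit. These limits cover counting error only.

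Levels between genes were compared as CPM per kb of exon. The Hoxc cluster held the highest values. Hoxc8, a vertebral patterning gene also known as a repressor of brown fat genes, averaged 17.9 ± 5.40 CPM per kb (SD over 12 libraries), Hoxc10, known to restrain browning of subcutaneous fat, 13.7 ± 5.21, and Hoxc6, a gene of thoracic identity, 11.7 ± 2.69. Hoxc8 was above Hoxc10 in 11 of 12 libraries, whereas Hoxc10 was below Hoxc6 in all 6 TN libraries and above it in all 6 cold libraries. That switch rested on lengths that join the exons of all transcripts of a gene, and was not kept with the longest transcript. By the longest transcript, Hoxc6 averaged 17.8 and Hoxc10 13.7 CPM per kb over the 12 libraries. Hoxc6 was above Hoxc9, the next gene at 5.11 ± 1.35 CPM per kb, in 12 of 12 libraries. Below Hoxc9 the levels ran on without a gap. Hoxb4 stood at 3.64, Hoxb6 at 3.63, Hoxc5 at 3.57 and Hoxa5 at 3.46 CPM per kb, and each was above the next in between 6 and 8 of 12 libraries. Of these, Hoxc5 was below Hoxa5 in all 6 TN libraries and above it in all 6 cold libraries. The orders below Hoxc9 also changed with the longest transcript, by which Hoxa7 came next at 4.65 CPM per kb. Not every TN library then had Hoxc5 below Hoxa5. The lowest detected gene was Hoxd10 at 0.494 ± 0.125 CPM per kb.

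**Figure D1:**
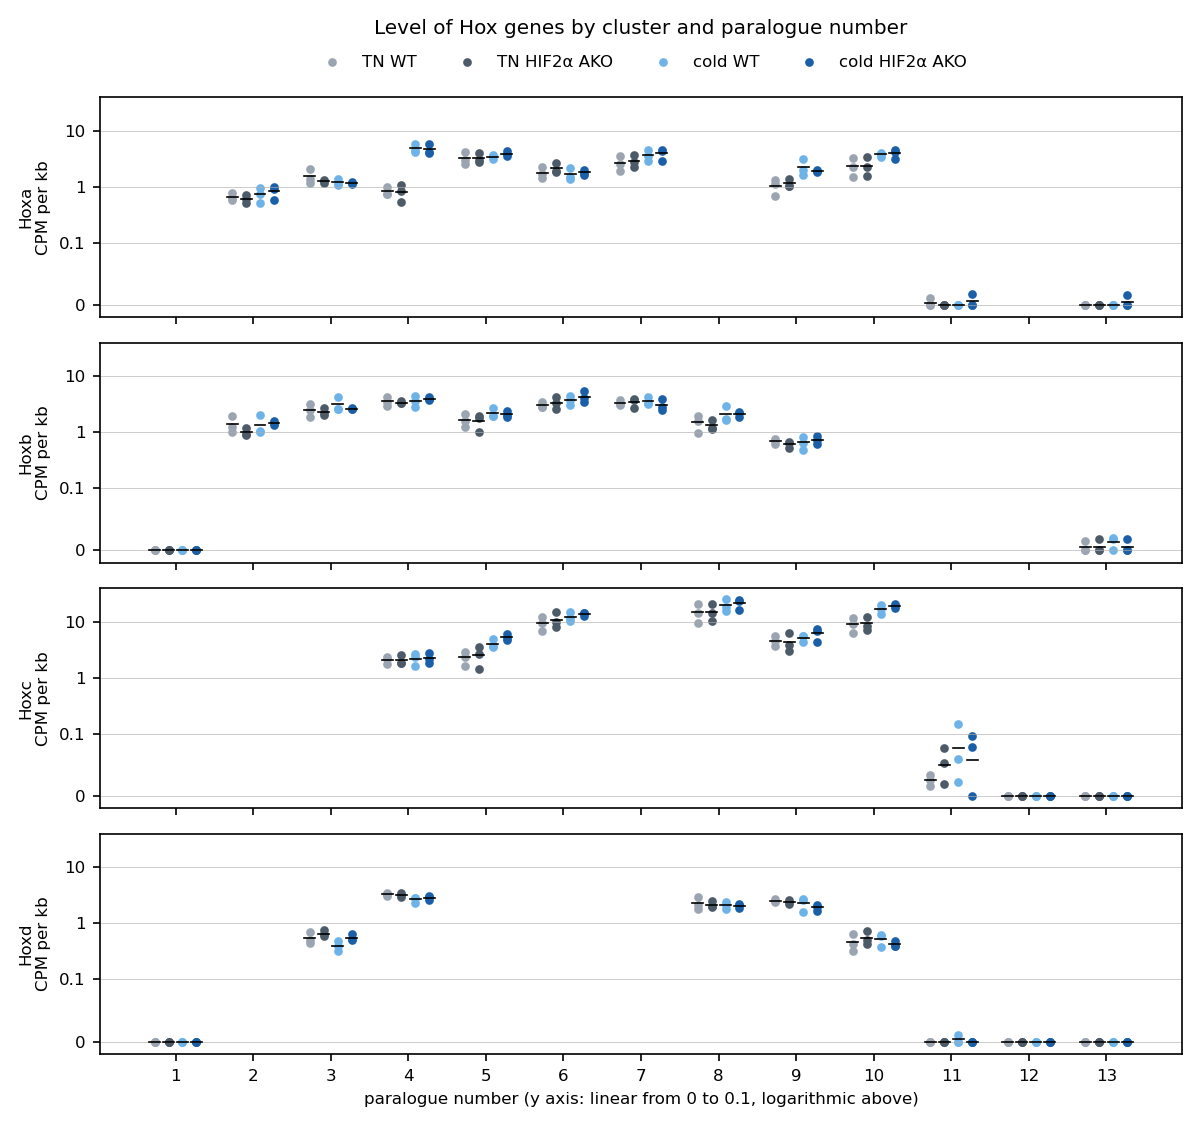
Level of 38 of the 39 Hox genes in CPM per kb of exon (vertical axis, linear from 0 to 0.1 and logarithmic above) against its paralogue number, 1 panel for each cluster; points are libraries coloured by group and black bars are group means. Hoxc6, Hoxc8 and Hoxc10 stand highest, and no gene with a number above 10 reaches 0.2 CPM per kb.

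The 3 genes with the highest mean level per kb over the 12 libraries were not the same paralogues in each cluster. In Hoxa they were Hoxa5, a regulator of lung and axial development, Hoxa7 and Hoxa10, although in cold Hoxa4 had the highest mean of the Hoxa cluster, 4.73 CPM per kb against 3.86 for Hoxa10. This rank of Hoxa4 depends on the length used. With the longest transcript of each gene, Hoxa7 and Hoxa10 had higher cold means than Hoxa4. Hoxa5 was at 5.58, 4.87 and 7.88 CPM in TN WT mice and 5.69, 7.38 and 5.16 CPM in TN HIF2α AKO mice, against 5.91, 6.66 and 6.84 CPM in cold WT mice and 8.23, 7.20 and 6.57 CPM in cold HIF2α AKO mice. Hoxa7 was at 7.36, 5.55 and 10.2 CPM in TN WT mice and 6.35, 10.6 and 7.81 CPM in TN HIF2α AKO mice, against 8.32, 10.1 and 13.1 CPM in cold WT mice and 13.3, 12.4 and 8.33 CPM in cold HIF2α AKO mice. Every group of Hoxa5 overlapped every other, and so did those of Hoxa7 between genotypes. In Hoxb the highest were Hoxb4, known for its use in blood stem cells, Hoxb6 and Hoxb7. Hoxb4 was at 8.99, 7.61 and 10.9 CPM in TN WT mice and 8.41, 9.23 and 8.45 CPM in TN HIF2α AKO mice, against 9.17, 7.39 and 11.5 CPM in cold WT mice and 10.8, 10.1 and 9.62 CPM in cold HIF2α AKO mice. Hoxb6 was at 5.58, 5.52 and 6.96 CPM in TN WT mice and 5.06, 8.51 and 6.43 CPM in TN HIF2α AKO mice, against 5.95, 7.31 and 8.81 CPM in cold WT mice and 7.94, 6.84 and 10.6 CPM in cold HIF2α AKO mice. Hoxb7 was at 4.76, 4.93 and 5.80 CPM in TN WT mice and 4.25, 6.03 and 5.76 CPM in TN HIF2α AKO mice, against 5.06, 4.91 and 6.60 CPM in cold WT mice and 3.87, 6.03 and 4.29 CPM in cold HIF2α AKO mice. Hoxb4 was higher in every cold than in every TN library of HIF2α AKO mice, and the other comparisons of these 3 genes between temperatures or genotypes overlapped. In Hoxd the highest were Hoxd4, Hoxd8 and Hoxd9. Hoxd8 was at 5.07, 5.89 and 8.19 CPM in TN WT mice and 5.61, 6.97 and 5.37 CPM in TN HIF2α AKO mice, against 5.86, 6.75 and 4.95 CPM in cold WT mice and 5.18, 5.99 and 5.97 CPM in cold HIF2α AKO mice. Hoxd9 was at 5.83, 5.07 and 5.42 CPM in TN WT mice and 5.53, 4.77 and 5.12 CPM in TN HIF2α AKO mice, against 5.73, 5.68 and 3.42 CPM in cold WT mice and 3.58, 4.18 and 4.61 CPM in cold HIF2α AKO mice. For Hoxd9, the lowest values were those of cold WT replicate 3 and cold HIF2α AKO replicate 1.

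In Hoxc, the leading genes varied together over the libraries. Hoxc8 was at 40.4, 27.4 and 58.3 CPM in TN WT mice and 29.1, 59.1 and 40.1 CPM in TN HIF2α AKO mice, against 44.2, 51.6 and 72.7 CPM in cold WT mice and 70.4, 67.5 and 47.0 CPM in cold HIF2α AKO mice. Hoxc6 was at 23.4, 16.6 and 29.8 CPM in TN WT mice and 19.8, 36.1 and 23.8 CPM in TN HIF2α AKO mice, against 25.1, 27.9 and 35.6 CPM in cold WT mice and 34.6, 34.2 and 31.3 CPM in cold HIF2α AKO mice. TN WT replicate 2 and TN HIF2α AKO replicate 1 had the lowest values of both genes. These 2 libraries also had the lowest summed level of all Hox genes, 166 and 176 CPM, and the lowest sums of the white adipocyte markers, 5029 and 7798 CPM. Their sums of lymphocyte markers were the highest, 1979 and 1983 CPM. The part of adipocyte or lymphocyte content in the Hox levels was not tested. In bulk RNA, fewer cells of a type and less RNA per cell cannot be told apart.

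**Figure D2:**
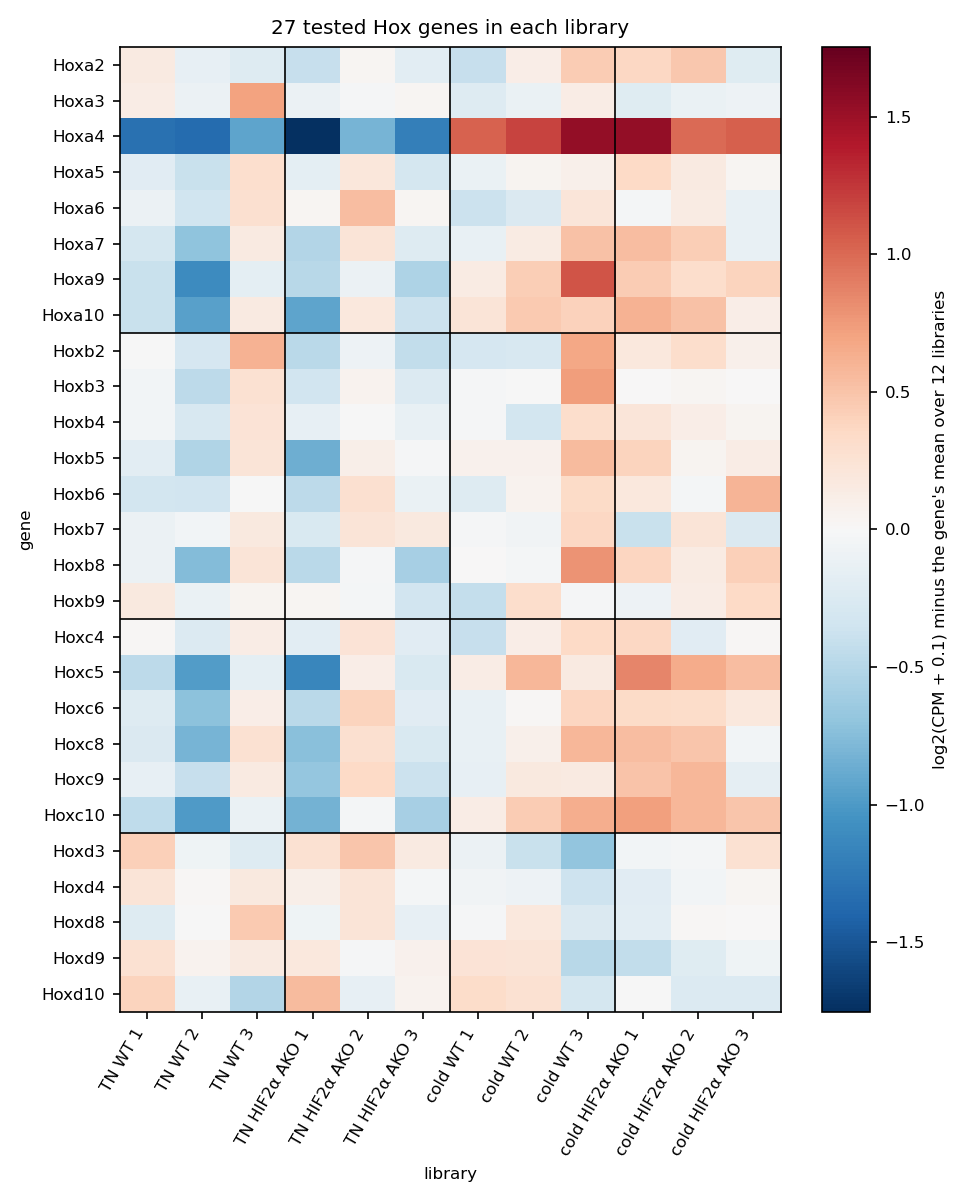
27 of the 28 tested Hox genes (rows, by cluster and paralogue number) in the 12 libraries (columns, by group); colour gives log2 CPM, with a small constant added, minus the gene's mean over the libraries. Hoxa4 is below its mean in all 6 TN libraries and above it in all 6 cold libraries, and most Hoxc rows are lowest in TN WT replicate 2 and TN HIF2α AKO replicate 1.

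Upon cold exposure, Hoxa4 rose about 6-fold in either genotype. It is a gene of cervical and thoracic identity at chr6:52189671-52191753 (minus strand) on GRCm38. Its raw counts were 47, 34 and 47 in TN WT and 22, 55 and 37 in TN HIF2α AKO mice, against 146, 170 and 231 in cold WT and 192, 157 and 164 in cold HIF2α AKO mice. After scaling, this gave 1.20, 1.17 and 1.60 CPM in TN WT mice and 0.857, 1.73 and 1.31 CPM in TN HIF2α AKO mice, against 6.53, 7.26 and 9.29 CPM in cold WT mice and 9.30, 6.31 and 6.57 CPM in cold HIF2α AKO mice. All 6 cold libraries lay above all 6 TN libraries, with a gap from 1.73 to 6.31 CPM. In edgeR's quasi-likelihood test the log2 fold change was 2.54 ± 0.27 (SE) in WT (adjusted p = 5.17e-04) and 2.50 ± 0.28 in HIF2α AKO mice (adjusted p = 3.08e-04). Averaged over genotypes it was 2.52 ± 0.19, a 5.73-fold rise (adjusted p = 1.21e-05), which ranked 65 of 15306 genes by p.

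The tested neighbours of Hoxa4 and its paralogues Hoxb4 and Hoxc4 did not pass that test. Averaged over genotypes, the log2 fold change was -0.23 ± 0.14 for Hoxa3 (adjusted p = 0.185) and 0.18 ± 0.14 for Hoxa5 (adjusted p = 0.318) in edgeR. For the paralogues it was 0.13 ± 0.12 for Hoxb4 (adjusted p = 0.408) and 0.10 ± 0.16 for Hoxc4 (adjusted p = 0.639), whereas Hoxd4 fell, as given below with its values. Hoxa4 lies within the annotated span of Hoxa3, and in GENCODE an exon of Gm29430 on the other strand overlaps an exon of Hoxa4. Gm29430 was not analysed here, and the strand setting of the counting is not given in the sources used here. Hoxaas3, a non-coding transcript on the other strand that overlaps Hoxa4 by its span and not by an exon, averaged 0.722 CPM in TN WT, 0.776 in TN HIF2α AKO, 0.658 in cold WT and 0.467 in cold HIF2α AKO mice, with a log2 fold change of -0.44 ± 0.34 averaged over genotypes (adjusted p = 0.293 in edgeR). Without strand, reads of Hoxa4 and of Gm29430 cannot be told apart.

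Hoxc10 rose about 2-fold upon cold exposure in either genotype. It was at 17.9, 12.2 and 22.4 CPM in TN WT mice and 13.7, 23.7 and 16.2 CPM in TN HIF2α AKO mice, against 26.5, 33.0 and 38.0 CPM in cold WT mice and 40.2, 36.3 and 34.0 CPM in cold HIF2α AKO mice. All cold libraries lay above all TN libraries. The log2 fold change in edgeR was 0.89 ± 0.24 in WT (adjusted p = 0.0245), 1.04 ± 0.24 in HIF2α AKO mice (adjusted p = 0.0115) and 0.97 ± 0.17 averaged over genotypes (adjusted p = 0.00128). Hoxc5 was at 7.33, 5.11 and 9.01 CPM in TN WT mice and 4.52, 11.0 and 8.38 CPM in TN HIF2α AKO mice, against 11.1, 15.2 and 11.3 CPM in cold WT mice and 18.4, 16.0 and 14.7 CPM in cold HIF2α AKO mice. Its cold libraries also lay above all TN libraries, and it rose by 1.03 ± 0.29 in HIF2α AKO mice (adjusted p = 0.0268 in edgeR) and by 0.92 ± 0.21 averaged over genotypes (adjusted p = 0.00508), with 0.81 ± 0.29 in WT (adjusted p = 0.0703). In GENCODE the Hoxc5 gene, chr15:102967443-103017429 (plus strand), has an exon that overlaps Hoxc10, chr15:102966796-102971893 (plus strand). The annotation used for counting is not given, so the values of these 2 genes may not be independent.

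Hoxa9 and Hoxa10, genes of posterior identity next to each other in the Hoxa cluster, rose as well. Hoxa9 was at 6.26, 3.80 and 7.33 CPM in TN WT mice and 5.84, 7.72 and 5.65 CPM in TN HIF2α AKO mice, against 9.13, 11.2 and 17.8 CPM in cold WT mice and 11.2, 10.2 and 10.8 CPM in cold HIF2α AKO mice. All cold libraries were higher than all TN libraries, and cold WT replicate 3 was the highest. In edgeR its log2 fold change was 1.13 ± 0.28 in WT (adjusted p = 0.0166), 0.74 ± 0.27 in HIF2α AKO mice (adjusted p = 0.0639) and 0.94 ± 0.19 averaged over genotypes (adjusted p = 0.00329). Hoxa10 was at 7.31, 4.90 and 10.7 CPM in TN WT mice and 4.99, 11.0 and 7.39 CPM in TN HIF2α AKO mice, against 11.2, 13.2 and 12.7 CPM in cold WT mice and 14.6, 13.7 and 10.4 CPM in cold HIF2α AKO mice. Its groups overlapped in HIF2α AKO mice, and it passed the test averaged over genotypes alone, at 0.71 ± 0.22 (adjusted p = 0.0198 in edgeR).

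The other called genes changed less. Hoxb8, a gene of thoracic identity also used in myeloid cells, was at 4.18, 2.6 and 5.25 CPM in TN WT mice and 3.19, 4.43 and 2.97 CPM in TN HIF2α AKO mice, against 4.52, 4.36 and 7.80 CPM in cold WT mice and 5.86, 4.99 and 6.05 CPM in cold HIF2α AKO mice. It rose by 0.57 ± 0.21 averaged over genotypes (adjusted p = 0.0416 in edgeR), with overlap between the TN and cold libraries. Hoxd4 was at 10.4, 9.08 and 10.1 CPM in TN WT mice and 9.54, 10.5 and 8.73 CPM in TN HIF2α AKO mice, against 8.55, 8.37 and 6.92 CPM in cold WT mice and 7.80, 8.64 and 9.09 CPM in cold HIF2α AKO mice, lower in cold in every WT library but overlapping in HIF2α AKO mice. Averaged over genotypes its log2 fold change was -0.24 ± 0.09 (adjusted p = 0.0481 in edgeR). Hoxd3 and Hoxd4 share exons in GENCODE. Both calls were near the limit of 0.05. The calls of Hoxb8 and of Hoxd4 were each lost without TN WT replicate 1, TN HIF2α AKO replicate 1, cold WT replicate 3 or either of cold HIF2α AKO replicates 1 and 2; that of Hoxb8 was also lost without TN WT replicate 2, TN HIF2α AKO replicate 3 or cold HIF2α AKO replicate 3, and that of Hoxd4 without TN WT replicate 3 or TN HIF2α AKO replicate 2.

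**Figure D3:**
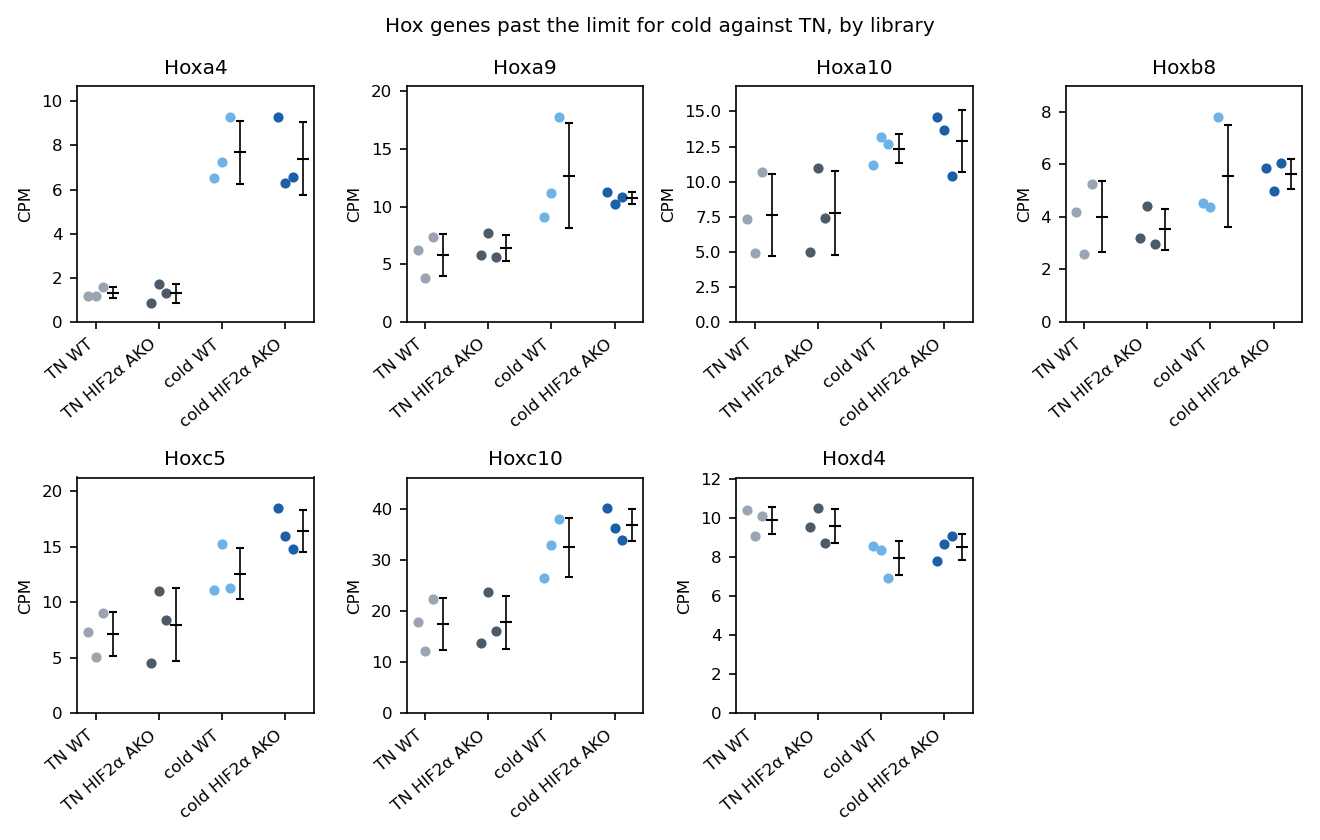
CPM of the 7 Hox genes past the limit for cold against TN averaged over genotypes (vertical axes from 0), by group; coloured points are single mice and black marks are the mean ± SD of 3 mice. Hoxa4, Hoxa9, Hoxc5 and Hoxc10 show no overlap between the 6 TN and the 6 cold libraries, and Hoxd4 lies lower in cold.

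In number, 3 of 28 Hox genes passed in WT (Hoxa4, Hoxa9 and Hoxc10), all higher in cold, against 21.3% of all 15306 tested genes (15.6% higher and 5.68% lower). In HIF2α AKO mice 3 passed (Hoxa4, Hoxc5 and Hoxc10), all higher, against 27% of all genes (15.6% higher and 11.5% lower). Averaged over genotypes, 6 were higher and 1 lower, against 48.8% of all genes (24.8% higher and 24.0% lower). The share of Hox genes called, 10.7% in each genotype and 25.0% on average, was thus below that over all genes. The median SE of Hox genes was larger, 0.250 against 0.177 over all genes in HIF2α AKO mice and 0.177 against 0.125 averaged over genotypes. A lower share of calls is therefore no measure of a smaller change. Library size alone in place of TMM moved the median of all genes by -0.28 on the log2 scale. Averaged over genotypes, 4 Hox genes were then higher (Hoxa4, Hoxa9, Hoxc5 and Hoxc10) and 5 lower (Hoxa3, Hoxa6, Hoxd3, Hoxd4 and Hoxd9). That scaling called 2102 of all tested genes higher and 7653 lower. Voom called 10 Hox genes higher and 2 lower, against 4259 higher and 4104 lower over all genes. Without the 3 libraries that stood apart, 5 passed in WT, 4 in HIF2α AKO mice and 10 on average, all higher in cold. Of all genes, 2552, 1466 and 3672 were then higher in cold. The counts within a genotype varied with single libraries, and so did those over all genes. In WT, 1 passed without TN WT replicate 2 or without cold WT replicate 3 and 5 without TN WT replicate 3. The genes higher in cold over the whole table then numbered 1149, 1312 and 2669, against 2389 with all libraries. Leaving out TN WT replicate 1 gave 2 in WT, against 1434 of all genes higher in cold. In HIF2α AKO mice, 1 passed without TN HIF2α AKO replicate 1, 5 without TN HIF2α AKO replicate 2, and 2 without TN HIF2α AKO replicate 3, cold HIF2α AKO replicate 1 or cold HIF2α AKO replicate 2. Over all genes, leaving out these TN replicates 1, 2 and 3 gave 1352, 2406 and 1621 higher in cold, against 2381 with all libraries. Leaving out these cold replicates 1 and 2 gave 1299 and 1915. The call of Hoxc10 in WT was lost without TN WT replicate 1, TN WT replicate 2 or cold WT replicate 3, and that of Hoxa9 in WT without either of the last 2 of these. In HIF2α AKO mice Hoxc10 lost its call without TN HIF2α AKO replicate 1 (adjusted p = 0.0525 in edgeR), and Hoxc5 without TN HIF2α AKO replicate 1 or 3 or cold HIF2α AKO replicate 1 or 2 (adjusted p from 0.0572 to 0.0953). Hoxa4 was called in each genotype under every alternative that was run.

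The cold and TN libraries did not overlap for 5 Hox genes that were higher and 1 that was lower in cold WT mice, against 42.0% of all tested genes in either direction. In HIF2α AKO mice this held for 8 higher and 1 lower, against 50.5%. Over both genotypes it held for the 4 genes Hoxa4, Hoxa9, Hoxc5 and Hoxc10, against 24.6% of all tested genes.

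The clusters differed in the direction of their fitted values. Averaged over genotypes, the fitted log2 fold change upon cold was above 0 for 6 of 6 Hoxc genes (median 0.41), 7 of 8 Hoxb genes (median 0.25) and 7 of 9 Hoxa genes (median 0.30), and below 0 for 5 of 5 Hoxd genes (median -0.23). The median was 0.28 over the 28 Hox genes and -0.05 over all tested genes. With library size alone, the median over the Hox genes was -0.010, with 14 of 28 above 0, and in WT it was -0.14. By that scaling, 5 of 6 Hoxc genes were above 0 and 5 of 5 Hoxd genes below 0, and with voom these were 5 of 6 and 4 of 5. Within a genotype, the median over the Hox genes was 0.16 in WT and 0.33 in HIF2α AKO mice. Genes in a cluster are neighbours and not replicates, so no test was made of these medians.

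**Figure D4:**
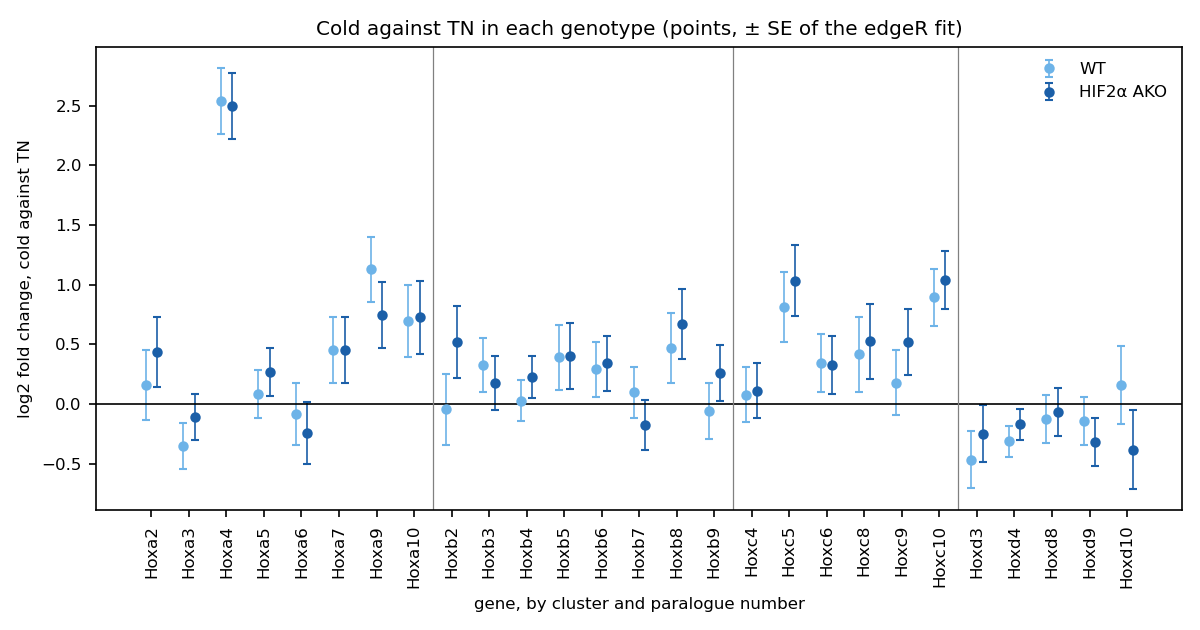
Fitted log2 fold change of cold against TN (vertical axis, points with ± SE) for 27 of the 28 tested Hox genes, ordered by cluster and paralogue number, in WT and in HIF2α AKO mice. Hoxa4 stands near 2.5 in either genotype, the Hoxc genes lie above 0, and the Hoxd genes lie mostly below 0.

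As shares of the summed Hox level per kb, Hoxc took 49.9 ± 2.97% in TN WT, 51.3 ± 4.33% in TN HIF2α AKO, 54.2 ± 1.69% in cold WT and 57.1 ± 2.51% in cold HIF2α AKO mice (SD, n = 3), with overlap between temperatures. The Hoxd share lay between 8.72 and 13.6% in TN and between 4.92 and 9.30% in cold. The Hoxb share ranged from 18.4 to 22.8% in TN and from 15.5 to 19.8% in cold. Hoxa took 17.1 to 18.3% in TN and 18.6 to 20.3% in cold, without overlap. From raw counts, not divided by length, the Hoxa share was 18.2 to 20.1% in TN and 19.9 to 21.7% in cold, with overlap. By position, groups 9 to 13 took 23.7 to 25.6% in TN and 26.9 to 30.4% in cold, without overlap on either scale. Groups 1 to 3 took 6.69 to 9.0% in TN and 5.84 to 7.52% in cold. Shares sum to the whole, so the rise of Hoxc10, Hoxa9, Hoxa10 and Hoxa4 lowers the others.

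**Figure D5:**
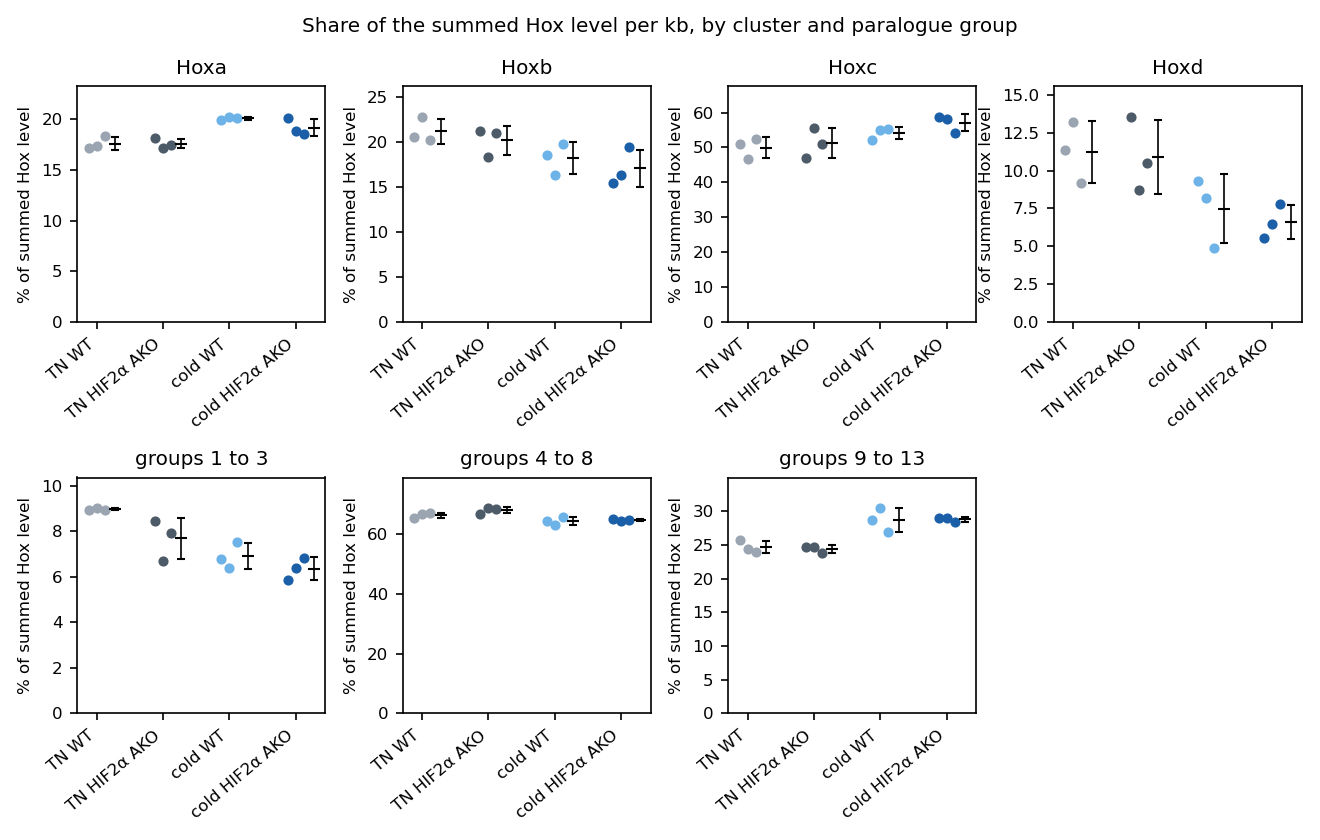
Share of the summed Hox level per kb (vertical axes from 0, in %) by cluster and by paralogue group; coloured points are single mice and black marks the mean ± SD of 3 mice. The share of groups 9 to 13 lies at 23.7 to 25.6% in TN and 26.9 to 30.4% in cold, and the Hoxd share is lower in cold on average with overlap.

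Cell type markers moved with temperature too. Their calls averaged over genotypes are to be read against 24.8% of all tested genes higher and 24.0% lower. White adipocyte markers summed to 5029 to 13463 CPM in TN and 17327 to 34103 CPM in cold, with 5 of 8 higher and 0 lower in cold averaged over genotypes. Fabp4 weighed most in this sum, with means of 3782 CPM in TN WT and 12550 CPM in cold WT mice. Adipoq (0.21 ± 0.24, adjusted p = 0.478 in edgeR), Acvr1c and Lep did not pass. Thermogenic markers summed to 28.4 to 90.6 CPM in TN and 3350 to 8582 CPM in cold, with 8 of 8 higher. Stromal and progenitor markers summed to 5760 to 7500 CPM in TN and 3590 to 4925 CPM in cold, with 8 of 14 lower and 0 higher. Lymphocyte markers fell in 8 of 10 (1204 to 1983 CPM in TN, 693 to 1202 CPM in cold). Of macrophage markers 3 of 10 were called lower (1738 to 3035 CPM against 1469 to 2899 CPM), near the share of all genes. Within a genotype, 0 of 10 macrophage markers passed in WT (median log2 fold change -0.03) and 3 of 10 were lower in HIF2α AKO mice (median -0.67). Of the other lists, 1 of 6 endothelial and 1 of 6 Schwann cell markers were higher, 1 of 7 epithelial markers was lower, and 0 of 12 skeletal muscle markers passed. The part of this shift in the Hox differences was not tested.

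Between genotypes no Hox gene passed. At TN, 0 of 28 had an adjusted p under 0.05 in edgeR and 0 had an unadjusted p under 0.05, against 0.00653% of all tested genes called and 446 genes at an unadjusted p under 0.05. The fitted log2 differences lay between -0.50 and 0.27, with a median of -0.012 and a median SE of 0.25. Hoxa3 and Hoxb2 were among the 3 with the smallest unadjusted p. Hoxb2, a hindbrain gene, was at 4.41, 3.60 and 6.79 CPM in TN WT mice and 3.16, 4.14 and 3.25 CPM in TN HIF2α AKO mice, against 3.58, 3.63 and 7.12 CPM in cold WT mice and 5.04, 5.47 and 4.69 CPM in cold HIF2α AKO mice. Hoxa3, which patterns the pharyngeal arches, was at 8.35, 7.06 and 12.5 CPM in TN WT mice and 7.09, 7.47 and 7.77 CPM in TN HIF2α AKO mice, against 6.49, 7.05 and 8.33 CPM in cold WT mice and 6.59, 7.0 and 7.17 CPM in cold HIF2α AKO mice. TN WT replicate 3, the library rich in epithelium genes, had the highest TN value of both genes.

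In cold, 0 of 28 passed and 0 had an unadjusted p under 0.05, against 0.00653% of all tested genes called and 451 at an unadjusted p under 0.05. The differences lay between -0.31 and 0.47 with a median of 0.10. Hoxd3 had the smallest p, with a log2 difference of 0.47 ± 0.24 (adjusted p = 1.00 in edgeR), followed by Hoxc5 and Hoxd9. Hoxd3 was at 2.98, 2.09 and 1.88 CPM in TN WT mice and 2.69, 3.14 and 2.47 CPM in TN HIF2α AKO mice, against 2.06, 1.67 and 1.33 CPM in cold WT mice and 2.13, 2.17 and 2.68 CPM in cold HIF2α AKO mice, and it was the 1 Hox gene whose genotypes did not overlap in cold, against 7.53% of all tested genes. At TN there were 0 such genes, against 7.69%. DESeq2 and voom also called 0 Hox genes at either temperature.

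The change upon cold did not differ detectably between genotypes. For the interaction of genotype and temperature, 0 of 28 Hox genes passed, with 0 at an unadjusted p under 0.05, against 0% of all tested genes called and 327 at an unadjusted p under 0.05. Among the 3 with the smallest p were Hoxb2, at 0.57 ± 0.42, and Hoxd10, at -0.54 ± 0.46 on the log2 scale. For Hoxa4 the interaction was -0.05 ± 0.38, and for Hoxc10 it was 0.15 ± 0.34. The median SE of 0.35 sets how small a difference these 12 mice could show. DESeq2 and voom called 0 Hox genes for the interaction.

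Of the genes that act with or on Hox genes, the lists differed in how many were called upon cold, to be read against 24.0% of all tested genes lower and 24.8% higher. Averaged over genotypes, 2 of 9 TALE cofactors were lower and 0 higher, Pbx2 at -0.19 ± 0.06 (adjusted p = 0.0316 in edgeR) and Pbx4 at -0.71 ± 0.15 (adjusted p = 0.00355). Of 23 Polycomb genes 12 were lower and 2 higher, with a list median of -0.23. Ezh2, the methyltransferase of Polycomb complex 2, fell by 0.57 ± 0.16 (adjusted p = 0.0141 in edgeR). Of 10 Trithorax and H3K27 demethylase genes 5 were lower and 2 higher. Kmt2a, listed as Mll1, fell by 0.71 ± 0.11 (adjusted p = 0.000809 in edgeR), and Kdm6b, which removes the mark Polycomb sets, rose by 0.45 ± 0.08 (adjusted p = 0.00125). Of 25 ParaHox and other positional regulators 14 were tested, with 3 higher and 2 lower. The fitted value was below 0 for 10 of these 14, with a list median of -0.18. Tbx15, a marker of subcutaneous fat, rose by 0.36 ± 0.10 (adjusted p = 0.0161 in edgeR), and Shox2, a limb gene, rose by 0.95 ± 0.26 (adjusted p = 0.0120). Nr2f1 fell by 0.42 ± 0.13 (adjusted p = 0.0244 in edgeR) and Meox1 by 0.41 ± 0.15 (adjusted p = 0.0448). Between genotypes, 0 genes of these lists passed at either temperature. Of 11 non-coding transcripts of the Hox clusters, 4 were in the table and 1, Hoxaas3, was tested.

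Because the study concerns HIF2α, the letters ACGTG and GCGTG, cores of the hypoxia response element, were searched on both strands of RefSeq promoter windows on GRCm38.p6, which run from 250 bases before to 50 after each start. Windows were found for 22 of 39 Hox genes, 24 windows in all, and Hoxa4 and Hoxc10 have none. ACGTG was present in 7 of 24 Hox windows, against 19.6% of all 32851 windows, and GCGTG in 9 of 24, against 32.4%. The cAMP response element TGACGTCA was in 0 of 24, against 1.79%. A match is a description of letters and says nothing about binding.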

How the data were processed

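RNA-seq of iWAT from 12 mice was analysed from the raw count of reads on each gene, as deposited by the authors. According to the submitters' processing notes and the methods, reads were trimmed with Trim Galore 0.4.4, aligned with STAR 2.6.1d to GRCm38 and counted with HTSeq 0.13.5, and the values are raw counts without normalization. The annotation and strand setting are not given in the sources used here. Tallies of reads outside genes, 21.9 to 27.0% of the reads listed, were left out. Library totals lay between 22368316 and 35204631 counts.

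Counts were analysed in R 4.3.3 with edgeR 4.0.16. filterByExpr (minimum count 10, minimum total 15) kept 15306 of 23420 genes. After TMM scaling, all libraries entered 1 quasi-likelihood fit with the 4 groups as levels of a single factor. Adjusted p-values (Benjamini-Hochberg, across the 15306 genes) under 0.05 counted as calls. The contrasts were cold against TN in each genotype and averaged, HIF2α AKO against WT at each temperature, and the interaction. The common biological coefficient of variation was 0.202. Levels per kb used exon lengths, and positions and homeoboxes came from GENCODE vM21; all 39 members were matched there. P-values set a difference against the spread between mice within groups, estimated for each gene over the 4 groups with information shared between genes. Alternatives were other scalings, filters, DESeq2 1.42.0, voom of limma 3.58.1, fewer libraries, a replicate block and each library left out; leaving out 3 libraries rich in muscle or epithelium genes was chosen after seeing the data. The processing was tested on simulated data.

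Per-library values are given for the 3 members of each cluster with the highest level per kb, for members past the limit and for the 3 members with the smallest p in each contrast; other genes come from lists. The members and lists were chosen with earlier results of these data known. Some values and sequences that these rules would name are not reported here.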

Additional observations from a re-analysis of the deposited data

How the results depend on the processing

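With library size alone the median log2 fold change over the Hox genes upon cold was -0.14 in WT, 0.082 in HIF2α AKO mice and -0.010 averaged over genotypes, and 6 Hox genes were called in WT. The median of all genes moved by -0.30, -0.27 and -0.28, and 5888 of all genes were called in WT. In WT, 5 Hox genes were called by DESeq2, 7 by voom, 1 by edgeR on the 6 WT libraries and 5 without the muscle-rich and epithelium-rich libraries. Of all tested genes, DESeq2 called 4666 and voom 4684 in WT, against 3259 in the main fit. In HIF2α AKO mice 8 were called by voom, 5 by edgeR and 7 by DESeq2 on the 6 libraries of that genotype. Voom called 3214 of all genes higher and 2926 lower there, against 2381 and 1757 in the main fit. The counts over all genes for the fits on 6 libraries are not given here. Averaged over genotypes voom called 12 Hox genes, against 4259 higher and 4104 lower over all genes. Leaving out each library in turn gave 1 to 5 calls and a median of 0.06 to 0.31 in WT, 1 to 5 calls and a median of 0.21 to 0.56 in HIF2α AKO mice, and 5 to 10 calls and a median of 0.17 to 0.36 averaged. The calls over all genes varied with the library left out too, as given above for each genotype. Averaged over genotypes, 3241 to 4047 of all genes were then higher in cold and 2626 to 3726 lower. The Hoxa share averaged 20.0% from raw counts and 19.9% with the longest transcript, against 18.6%, and from raw counts the TN and cold libraries overlapped. With the replicate block, 3, 3 and 5 Hox genes were called upon cold in WT, in HIF2α AKO mice and averaged, and Hoxb8 and Hoxd4 lost their calls. Over all genes, that block gave 2018 higher and 543 lower in WT and 2090 and 1223 in HIF2α AKO mice. Averaged over genotypes it gave 3555 higher and 3174 lower. The labels do not say whether same-numbered mice were matched, and the main fit did not treat them as pairs. Of 18 same-numbered pairs, 5 had correlated deviations above 0.1 (range -0.43 to 0.39), which cannot settle it. In the simulated data DESeq2 made more false calls than edgeR or voom. That simulation used edgeR's own estimates of dispersion and changed few genes, unlike cold against TN here. It therefore cannot decide how much weight the larger counts of DESeq2 carry. No Hox gene was called between genotypes or for the interaction under any alternative run, and no called gene changed direction. The cause of these shifts was not tested.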
